A study of Mus musculus with 12 samples.

Results

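Hepcidin and 9 other genes of cardiac iron handling were followed through 3 groups of mouse heart samples. The 10 members (Hamp, Hfe2, Tfrc, Slc11a2, Slc40a1, Fth1, Ftl1, Ireb2, Aco1 and Hmox1) were found by symbol among the 24338 gene symbols of the authors' deposited tables, and all 10 were tested by the authors in both comparisons. The set was chosen by the listed FPKM of Hamp, more than 10-fold lower in the later knockout group than in the earlier one, so the members' values in that comparison are a description and carry no test. The study prepared poly(A)-selected, stranded RNA-seq libraries from material labelled cardiac cell for 4 groups of 3 samples, wild type (WT) or EGFR KO, aged 7 or 9 weeks. The 3 groups used here are wild type at 7 weeks (7wkWT), EGFR knockout at 7 weeks (7wkKO) and EGFR knockout at 9 weeks (9wkKO), and the 9 week wild type (9wkWT) was not analysed here. EGFR is the epidermal growth factor receptor, and the design calls the knockout cardiac. The sources used here do not give the promoter or Cre behind the deletion, the strain or the sex. Whether the 3 samples within each group are different mice is also not stated, so a deposited p measures the spread between those samples, which may be technical.

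The authors' deposited tables list 1 FPKM (fragments per kilobase of transcript, scaled for sequencing depth) per group, with no value per sample and no depth. No SD therefore accompanies a level, and errors below are 95% intervals implied by the deposited Cuffdiff p. A gene is called changed at a deposited q under 0.05. Both comparisons rest on the same 7wkKO samples, which the later table lists 0.751% to 0.850% higher than the earlier one for the members. In the authors' deposited tables Egfr itself was listed at 1.20 for 7wkWT, 1.64 for 7wkKO and 1.59 for 9wkKO (q = 0.379 at 7 weeks). Which part of Egfr was deleted is unknown here, so this level cannot check the labels. The cardiac muscle markers Myh6, Tnnt2 and Myl2 were among the most abundant transcripts, between 5004 and 24956 FPKM.

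Hepcidin is a peptide hormone that binds ferroportin, the only known iron exporter of mammalian cells, and sends it for degradation. It is made mostly by the liver, and cardiac muscle makes its own. Inside cells, iron enters on transferrin through the transferrin receptor, is moved out of endosomes by DMT1, is stored in ferritin shells of heavy and light chains, and is sensed by the iron regulatory proteins IRP1 and IRP2. When iron is low these proteins bind short hairpins in mRNA, the iron-responsive elements (IREs). Binding in a 5′ UTR blocks translation, and binding in the 3′ UTR of the transferrin receptor mRNA protects it from decay.

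The hairpins are shown first because their place in the mRNA is what is known to set whether IRPs act on translation or on mRNA decay. A search of the sense strand for a C, any 5 bases and the loop CAGTGN, where the 5 bases on each side of the loop pair at 4 or more of 5 positions, found sites in 5 of the 10 members. The sites were read from the GENCODE transcripts that match the deposited RefSeq isoforms (GRCm38, the assembly that mm10 names). The loop bases are in capitals.
Fth1, 5′ UTR, chr19:9982732-9982760, plus strand: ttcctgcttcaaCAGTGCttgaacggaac
Ftl1, 5′ UTR, chr7:45459779-45459807, minus strand: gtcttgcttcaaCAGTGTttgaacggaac
Slc40a1, 5′ UTR, chr1:45925465-45925493, minus strand: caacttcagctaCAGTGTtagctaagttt
Slc11a2, 3′ UTR, chr15:100395153-100395181, minus strand: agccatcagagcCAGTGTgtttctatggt
Tfrc, 3′ UTR, chr16:32631219-32631247, plus strand: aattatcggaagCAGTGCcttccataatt
Tfrc, 3′ UTR, chr16:32631598-32631626, plus strand: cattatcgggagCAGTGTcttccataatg
Tfrc, 3′ UTR, chr16:32631663-32631691, plus strand: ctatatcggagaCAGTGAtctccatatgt
Tfrc, 3′ UTR, chr16:32631710-32631738, plus strand: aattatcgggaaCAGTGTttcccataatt

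The 3 members with a site in the 5′ UTR were both ferritin chains and the exporter, and the 2 with a site in the 3′ UTR were both importers. The site of Slc11a2 paired at 4 of 5 positions and the other 7 sites at all 5. Of 19306 genes with a 5′ UTR in a RefSeq-matched transcript, 0.642% held such a site there, and of 19395 with a 3′ UTR, 3.94% did. Only 3 genes held 3 or more in the 3′ UTR, and Tfrc, with 4, was one of them. A match is a description of the letters and not evidence of binding.

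Hamp, which encodes hepcidin (mm10, chromosome 7, 30942369 to 30944017, minus strand), was the member whose listed level differed most between groups. The authors' deposited tables listed it at FPKM 7.70 for 7wkWT, 11.6 for 7wkKO and 0.703 for 9wkKO. Among tested genes it was thus of middling level at 7 weeks, ranked above 45.5% of them in 7wkWT and 57.3% in 7wkKO, and above 0.963% in 9wkKO. The authors tested 11987 genes at 7 weeks and 12046 later, of 24338 symbols, and genes low in both groups were often not tested. Few tested genes could therefore rank below Hamp in 9wkKO, and that rank partly reflects this filter. At 7 weeks the knockout level was 1.503 times that of the wild type, with an interval from 0.924 to 2.44 times (log2 fold 0.59, SE 0.36). That difference did not pass the deposited Cuffdiff test (q = 0.572), and its interval holds both no difference and more than a doubling.

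From 7wkKO to 9wkKO the listed Hamp level was 16.6-fold lower (log2 fold -4.05), the value that led to the choice of this gene. With a pseudocount of 1 FPKM it was 7.44-fold lower (log2 fold -2.89), under the 10-fold limit that chose the gene. Among 12044 tested genes with a level above 0 in both groups, 11 were more than 10-fold lower in 9wkKO and 0 were more than 10-fold higher. With pseudocounts of 0.1 and 1 FPKM, tried after the data were seen, 7 and 2 genes were more than 10-fold lower, with Hamp among the 7 and not among the 2. Without a pseudocount Hamp was the fourth of the 11 by size of the fall, after Alox8, Gm5424 and Mir8097, which were named after their values were seen and did not pass the deposited Cuffdiff test themselves (q = 0.609, 0.493 and 0.920). The next largest fall among the members was that of Aco1, to 0.871 times, far inside the 10-fold limit. Relative to 7wkWT, the sum of both log2 folds put Hamp in 9wkKO at 0.0906 times the wild type level, or 11.0-fold lower. That value spans both tables, which were normalized separately, and no deposited test applies to it. It also sets 9 week knockouts against 7 week wild types, so age and knockout cannot be told apart in it.

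**Figure D1:**
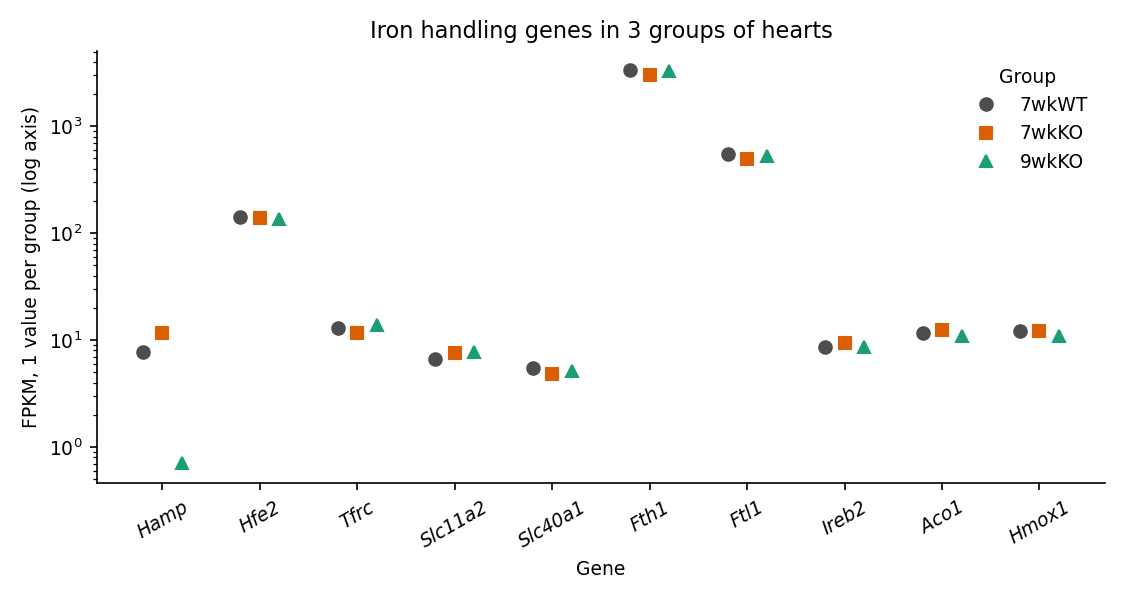
FPKM of the 10 iron handling genes on a log axis, with 1 point per group for 7wkWT, 7wkKO and 9wkKO. Hamp drops from 11.6 in 7wkKO to 0.703 in 9wkKO, while the 3 points of every other gene lie close together.

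Mice carry a second hepcidin gene, Hamp2, beside Hamp on chromosome 7 (30922372 to 30924181, minus strand), which can take up reads of the first. In the reference transcripts 60 of the 361 stretches of 50 bases in Hamp (16.6%) also occur in Hamp2. The authors did not test Hamp2 and listed it at FPKM 0.591 for 7wkWT, 0.362 for 7wkKO and 0.107 for 9wkKO in the deposited tables. Hamp was thus listed 13.0 times as high as its copy in 7wkWT, 32.02 times in 7wkKO and 6.58 times in 9wkKO. The copy's levels were low throughout, and its share of the reads assigned to Hamp was not tested. Both genes overlap Gm44662, a noncoding RNA gene on the opposite strand, and the sources used here do not say whether the counting used strand.

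The upstream sequences of both copies are shown because the copies were listed at different levels. The 120 bases before each start come from RefSeq's GRCm38.p6 promoter table, with 2 motifs in capitals, the STAT motif TTCNNNGAA and the GGCGCC core of a BMP-responsive element. In mouse and human liver, BMP and IL-6 signals reach the hepcidin gene through elements of these kinds.
Hamp, chr7:30944030-30944149, minus strand: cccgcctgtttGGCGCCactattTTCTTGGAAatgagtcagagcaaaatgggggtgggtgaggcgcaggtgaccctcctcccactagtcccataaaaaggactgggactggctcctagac
Hamp2, chr7:30924182-30924301, minus strand: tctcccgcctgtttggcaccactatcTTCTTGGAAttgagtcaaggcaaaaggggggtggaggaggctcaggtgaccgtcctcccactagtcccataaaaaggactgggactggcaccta

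In an alignment of 117 bases the copies were identical at 106, or 90.6%. Relative to the start, Hamp held GGCGCC at position -109 and the STAT motif at position -97. Hamp2 held the same STAT letters, and its aligned BMP core differed by G4A, counted from 1 at the 5′ end of the core. Whether these letters bear on the listed level of either copy was not tested. Searched on both strands, from 250 bases before to 50 bases after each start, the STAT motif occurred in 8.30% and GGCGCC in 11.9% of 32851 windows. Among the 5 other members with a window in that table (Tfrc, Fth1, Ftl1, Ireb2 and Aco1), the BMP core was found in Tfrc and the STAT motif in none of the 5, which says nothing about the factors themselves.

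Atrial muscle markers had log2 folds of the same signs as Hamp in both comparisons, apart from Nr2f2 at 7 weeks. The 7 week interval of Hamp holds no difference, so its sign there is not settled. The later sign of Hamp was fixed by the rule that chose it. Of 9 tested atrial markers, 6 were called higher in 7wkKO than in 7wkWT, beside 1.67% of all tested genes, and 8 were called lower in 9wkKO than in 7wkKO, beside 2.76%, with median log2 folds of 1.06 and -2.34. The marker lists were chosen with earlier results of these data known, so these counts are a description and not independent evidence. In the authors' deposited tables Sln, which encodes the calcium pump inhibitor sarcolipin, was listed at 31.7, 70.8 and 5.51 in 7wkWT, 7wkKO and 9wkKO. The atrial myosin light chain gene Myl7 was listed at 164, 343 and 32.5, and Myl4 at 108, 227 and 23.2. The summed FPKM of the 10 listed markers was 788, 3056 and 873, most of it Nppa (416, 2314 and 767), and Bmp10 was at 0 in all 3 groups. Nppa was the only one of them listed higher in 9wkKO than in 7wkWT, so the sum does not follow the other markers. In a bulk sample fewer atrial cells and less RNA per cell cannot be told apart, and the part that atrial tissue had in the Hamp values was not tested.

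Markers of other heart cells, from lists chosen with the same knowledge, also differed between the groups. All 6 endothelial markers had log2 folds below 0 at 7 weeks and above 0 later. At 7 weeks 0 were called and 5 had an unadjusted p below 0.05, beside 11.3% of all tested genes. Later Kdr, Cldn5 and Emcn were called higher, beside 1.89% of all tested genes, and none of the 6 was at 0. Their summed FPKM was 461, 364 and 509 in 7wkWT, 7wkKO and 9wkKO. Of 7 fibroblast markers, Postn was called higher at 7 weeks, beside 1.67% of all tested genes. Postn and Lum were called lower later, beside 2.76%. The log2 fold was above 0 for 6 of the 7 at 7 weeks and below 0 for 6 later, the signs of Hamp. Tcf21 had the other sign in both comparisons, at -0.022 and 0.17. In the authors' deposited tables Postn, a matrix protein gene, was listed at 29.6, 45.8 and 31.9 (q = 0.0050 and 0.00604), and the summed FPKM of that list was 697, 760 and 625, with none at 0. Their part in the members' values was not tested.

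The size of the Hamp drop beside those of atrial markers depended on the marker and on how low levels were treated. Hamp was listed at 24.3% of the Sln level for 7wkWT, 16.3% for 7wkKO and 12.8% for 9wkKO. Against Myl7 it was 4.70%, 3.38% and 2.17%, and against Myl4 it was 7.15%, 5.11% and 3.03%. From 7wkKO to 9wkKO Mybphl was 13.6-fold, Sln 13.0-fold, Myl7 10.6-fold and Myl4 9.83-fold lower, beside 16.6-fold for Hamp. The other tested atrial markers fell less, Dkk3 5.05-fold, Nppa 3.03-fold, Kcnj3 1.69-fold, Stard10 1.61-fold and Nr2f2 1.01-fold. No tested atrial marker had a larger drop than Hamp without a pseudocount, but with 1 FPKM added, an alternative tried after the data were seen, Sln, Myl7, Myl4 and Mybphl did, at 11.1-fold, 10.4-fold, 9.47-fold and 8.84-fold beside 7.44-fold. At 7 weeks Sln, Myl7, Myl4 and Mybphl were 2.23, 2.09, 2.11 and 2.90 times as high in the knockout, beside 1.503 times for Hamp. Dkk3 and Nppa were 1.99 and 5.56 times as high. Kcnj3, Stard10 and Nr2f2 had lower 7 week log2 folds (0.16, 0.36 and -0.15) than Hamp (0.59).

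**Figure D2:**
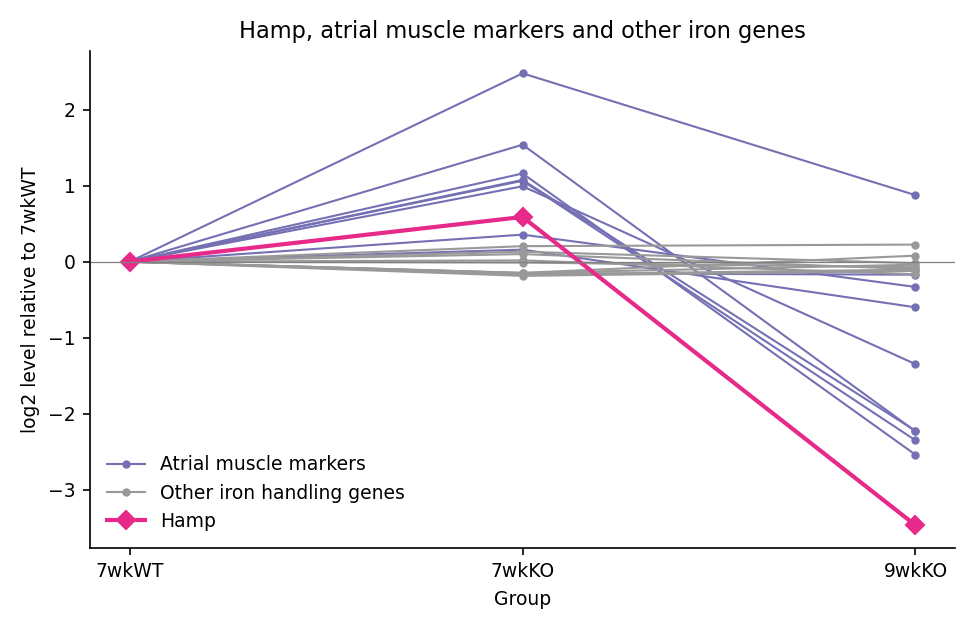
Log2 level relative to 7wkWT in the 3 groups for Hamp, 9 atrial muscle markers and the 9 other iron handling genes, with the 9wkKO point set by summing both log2 folds. Hamp and most atrial markers lie above 0 in 7wkKO and below 0 in 9wkKO, where Hamp is at -3.46, and the other iron genes stay within 0.23 of 0. The 9wkKO and 7wkWT groups differ in both age and genotype.

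The genes closest to Hamp in the plane of both log2 folds were Clec3a, Cpne5, Cacna2d2, Sln, Myl7, Ifltd1, Sfrp5 and Myl4, in that order, among 11891 tested genes with FPKM over 0.5 in 7wkKO. The Euclidean distance ran from 0.41 for Clec3a to 0.90 for Myl4, over 3 group levels and with the same 7wkKO samples in both folds. This ranking uses the later fold that chose Hamp and is a description only. Of the 8 genes, 5 (Clec3a, Cpne5, Cacna2d2, Ifltd1 and Sfrp5) were under 0.5 FPKM in 9wkKO and passed the minimum through 7wkKO. Clec3a was listed at 1.10, 2.17 and 0.143 in 7wkWT, 7wkKO and 9wkKO in the authors' deposited tables. Cpne5 was listed at 0.846, 1.18 and 0.0998, and Cacna2d2, a calcium channel subunit gene, at 2.23, 4.36 and 0.369. The natriuretic peptide gene Nppa, another atrial marker, stood 110th by distance. Only Sln, Myl7 and Myl4 of these 8 were also among the 8 nearest with an FPKM minimum of 5, and the same 3 with a pseudocount of 1 FPKM. The other 5 were listed under 5 FPKM in 7wkKO, so that minimum removed them before any distance was taken.

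Liver RNA was looked for because the liver is the main source of hepcidin. In the authors' deposited tables Alb, the albumin gene, was listed at 0 for 7wkWT, 0.0129 for 7wkKO and 0.0145 for 9wkKO, and 3 of 8 hepatocyte markers were at 0 in all groups. The summed FPKM of the list was 6.48, 9.11 and 5.29, most of it Ahsg (4.23, 6.77 and 2.94; q = 0.869 and 0.440). The part of liver RNA in the Hamp level was not tested beyond these values.

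Hfe2 encodes hemojuvelin, the BMP co-receptor that raises hepcidin transcription in the liver and is abundant in muscle (mm10, chromosome 3, 96525185 to 96529216, plus strand). It was listed at FPKM 140.3 for 7wkWT, 139.3 for 7wkKO and 134.5 for 9wkKO in the authors' deposited tables. The 3 levels lay within a few percent of each other, above at least 94.9% of tested genes in each group. The 7 week ratio was 0.993 (interval 0.807 to 1.22, q = 0.994), and the later one was 0.958.

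The inputs to hepcidin transcription were covered by a list of 25 genes of BMP, transferrin-sensing and IL-6 signalling. Of 21 tested, 0 met the threshold of the deposited Cuffdiff test in either comparison, although 5 at 7 weeks and 4 from 7 to 9 weeks had an unadjusted p below 0.05, beside 11.3% and 12.9% of all tested genes. Id1, a target gene of BMP signalling, was listed at 117 for 7wkWT, 93.4 for 7wkKO and 105 for 9wkKO in the authors' deposited tables (q = 0.345 and 0.811). Il6st, the signalling subunit of the IL-6 receptor, was listed at 39.3, 49.0 and 49.2 (q = 0.349 and 0.997). Tmprss6, which encodes the protease that cleaves hemojuvelin, was at 0 in both 7 week groups, and Tfr2, Il6 and Fam132b, the gene of the hormone erythroferrone, were at most 0.0567 in every group. The list median of log2 folds was -0.07 at 7 weeks and 0.0080 later, beside -0.00061 and 0.014 over all tested genes.

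Transferrin-bound iron enters through the receptor encoded by Tfrc (mm10, chromosome 16, 32608896 to 32632794, plus strand), whose mRNA carries the 4 hairpins printed above. The authors' deposited tables listed Tfrc at FPKM 12.9 for 7wkWT, 11.7 for 7wkKO and 13.8 for 9wkKO. The level was lowest in 7wkKO and highest in 9wkKO. The 7 week ratio was 0.903 with an interval from 0.736 to 1.11 (deposited Cuffdiff q = 0.845), and the later ratio was 1.17, the largest rise among the members.

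Slc11a2 encodes DMT1, which carries iron out of endosomes (mm10, chromosome 15, 100387900 to 100423055, minus strand). Its FPKM was 6.60, 7.60 and 7.77 in 7wkWT, 7wkKO and 9wkKO in the authors' deposited tables, with a 7 week ratio of 1.15 (interval 0.924 to 1.44, q = 0.745) and a later one of 1.01. The isoform that holds the hairpin (NM_001146161) was listed at 2.88, 3.07 and 3.53, and the isoform in which no such site was found (NM_008732) at 3.72, 4.54 and 4.24. The first made up 43.6%, 40.3% and 45.4% of the summed isoform FPKM. The isoform tests at 7 weeks gave deposited Cuffdiff q of 0.963 and 0.803.

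Export rests on ferroportin, the target of hepcidin, encoded by Slc40a1 (mm10, chromosome 1, 45908070 to 45925594, minus strand). Slc40a1 had the lowest 7 week level of the members and was listed at FPKM 5.49 for 7wkWT, 4.83 for 7wkKO and 5.10 for 9wkKO in the authors' deposited tables. The 7 week ratio of 0.879 was the lowest among the members (interval 0.699 to 1.10, q = 0.803), and the later ratio was 1.05. The level of Tfrc was 2.35, 2.42 and 2.70 times that of Slc40a1 in the 3 groups, on the FPKM scale.

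Other carriers, reductases and oxidases of iron formed a list of 11 genes, 7 of them tested. None passed the deposited Cuffdiff test at 7 weeks, where 1 had an unadjusted p below 0.05. From 7wkKO to 9wkKO 1 was called lower, beside 2.76% of all tested genes. For this list and those below, the shares called over all tested genes were 2.37% at 7 weeks and 4.66% later. The shares at an unadjusted p below 0.05 were 11.3% and 12.9%, so single genes in short lists are near what these shares give. The gene called lower was Slc22a17, which encodes a receptor for the iron-carrier protein lipocalin 2, listed at 1.83 for 7wkWT, 1.62 for 7wkKO and 0.839 for 9wkKO in the authors' deposited tables (later log2 fold -0.96, q = 0.0389). Lcn2, the gene of lipocalin 2, was listed at 2.99, 5.88 and 4.14, and its 7 week log2 fold of 0.98 had a q of 0.0566. The ferroxidase gene Cp was listed at 25.4, 27.5 and 27.2 (q = 0.918 and 0.994), and the transferrin gene Trf at 23.6, 22.9 and 26.0 (q = 0.986 and 0.781).

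Ferritin chains were by far the most abundant of the members' transcripts. Fth1, the heavy chain with ferroxidase activity (mm10, chromosome 19, 9980600 to 9985111, plus strand), was listed at FPKM 3329 for 7wkWT, 3004 for 7wkKO and 3265 for 9wkKO in the authors' deposited tables. It ranked 18th, 17th and 19th among the tested genes of the 3 groups. Its 7 week ratio was 0.902 (interval 0.688 to 1.18, deposited Cuffdiff q = 0.909), and the later ratio was 1.08.

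Ftl1, the light chain (mm10, chromosome 7, 45457944 to 45459886, minus strand), was listed at FPKM 556, 494.8 and 521 in the authors' deposited tables. It was lowest in 7wkKO, as were Fth1, Slc40a1 and Tfrc, and none of the 4 passed the deposited Cuffdiff test at 7 weeks. Its 7 week ratio was 0.890 (interval 0.722 to 1.10, q = 0.809) and the later one 1.05. The heavy chain stood at 5.99, 6.07 and 6.26 times the light chain in the 3 groups. Copies of Ftl1 make its level uncertain, since 78.9% of its 919 stretches of 50 bases also occur in transcripts of 15 other reference genes, chiefly Ftl1-ps1, against 3.997% for Fth1.

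Among 6 tested genes of iron storage and sensing outside the members, 0 met the threshold of the deposited Cuffdiff test in either comparison, although 1 at 7 weeks and 0 later had an unadjusted p below 0.05. That gene was Ncoa4, the receptor that delivers ferritin to lysosomes, listed at 4.10 for 7wkWT, 5.77 for 7wkKO and 5.94 for 9wkKO in the authors' deposited tables (7 week log2 fold 0.49, q = 0.0882). The ferritin iron chaperone gene Pcbp1 was listed at 158, 167 and 173 (q = 0.956 and 0.991), and Skp1a, a subunit of the ligase that degrades IRP2, at 136, 142 and 155 (q = 0.958 and 0.919).

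The iron regulatory proteins are encoded by Aco1 (IRP1, also the cytosolic aconitase) and Ireb2 (IRP2). Aco1 (mm10, chromosome 4, 40143265 to 40199009, plus strand) was listed at FPKM 11.7 for 7wkWT, 12.5 for 7wkKO and 11.0 for 9wkKO in the authors' deposited tables. Ireb2 (mm10, chromosome 9, 54863755 to 54912534, plus strand) was listed at 8.65, 9.48 and 8.60. Both were highest in 7wkKO. The 7 week ratios were 1.07 for Aco1 (interval 0.878 to 1.31, q = 0.926) and 1.10 for Ireb2 (interval 0.898 to 1.34, q = 0.862), and the later ratios were 0.871 and 0.901. The level of Aco1 was 1.35, 1.32 and 1.28 times that of Ireb2.

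Hmox1, the inducible heme oxygenase that frees iron from heme (mm10, chromosome 8, 75093618 to 75100593, plus strand), was listed at FPKM 12.1 for 7wkWT, 12.2 for 7wkKO and 10.9 for 9wkKO in the authors' deposited tables. The 7 week ratio was 1.01 (interval 0.810 to 1.27, deposited Cuffdiff q = 0.993) and the later one 0.882. Hmox2, the constitutive enzyme, was listed at 57.8, 56.9 and 60.8 (q = 0.993 and 0.980). NRF2, a transcription factor of the antioxidant response, also drives Hmox1. Of 11 tested genes in the list of NRF2, its regulators and its targets, 0 passed the deposited Cuffdiff test at 7 weeks, and 0 had an unadjusted p below 0.05, although 10 had a log2 fold above 0 and the list median was 0.19. From 7 to 9 weeks 1 was called higher, beside 1.89% of all tested genes. It was Srxn1, which encodes sulfiredoxin (9.26 for 7wkWT, 11.1 for 7wkKO and 16.9 for 9wkKO in the authors' deposited tables, later log2 fold 0.60, q = 0.00237). Nfe2l2, the gene of NRF2 itself, was listed at 46.8, 54.9 and 42.4 (q = 0.589 and 0.0933), and the list median for the later comparison was 0.0038.

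**Figure D3:**
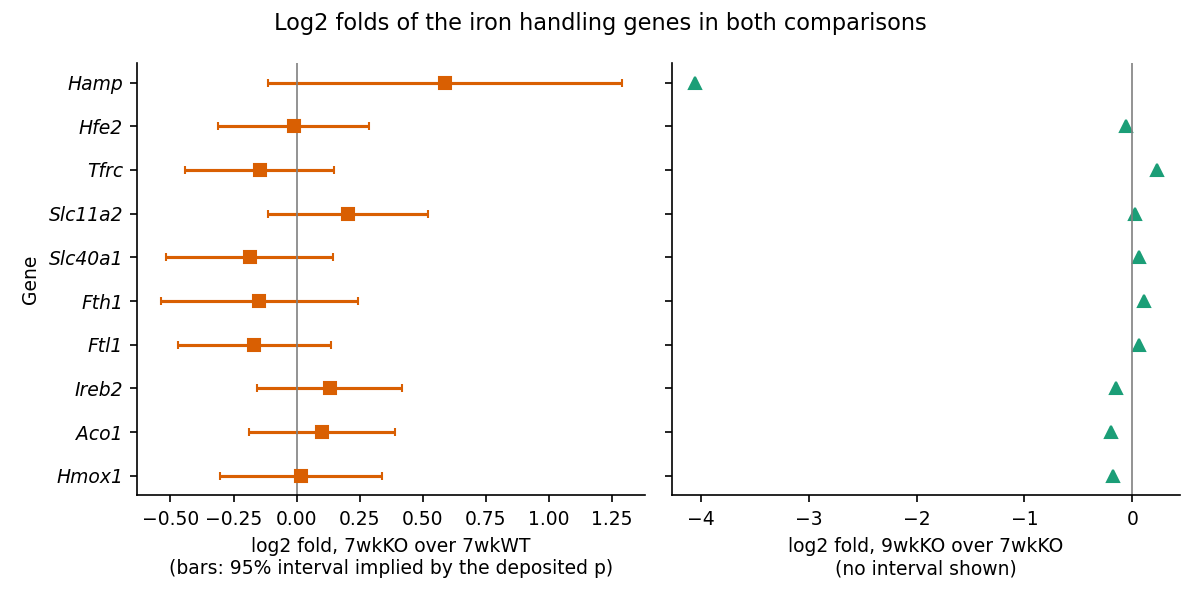
Log2 folds of the 10 members for 7wkKO over 7wkWT, with 95% intervals implied by the deposited p (left), and for 9wkKO over 7wkKO, shown as values alone (right). Every interval on the left crosses 0, and on the right Hamp lies at -4.05 while the others lie between -0.20 and 0.23.

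Across the members, 0 of 10 passed the deposited Cuffdiff test at 7 weeks, and 0 had an unadjusted p under 0.05, where 2.37% of all 11987 tested genes were called, 1.67% higher and 0.701% lower. The log2 fold was above 0 for 5 and below 0 for 5, with a median of 0.0034. For the 9 members other than Hamp the 7 week ratio ran from 0.879 to 1.15, and their intervals reached from 0.688 (Fth1) to 1.44 (Slc11a2). Each gene's own interval, given above, is the one implied by the deposited p. The intervals implied by the deposited statistic were wider, with limits reaching from 0.558 (Fth1) to 1.69 (Slc11a2). From 7wkKO to 9wkKO 1 of 10 members, Hamp, had a deposited q under 0.05, beside 4.66% of 12046 tested genes (1.89% higher and 2.76% lower), and nothing is read from that count because this comparison chose the set. The later ratios of the other 9 ran from 0.871 to 1.17. In 9wkKO their levels were between 0.892 and 1.17 times those of 7wkWT, a group that differs in both age and genotype.

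Heme synthesis, which uses iron in its last step, was measured through 9 genes, all tested. None was called at 7 weeks, where 2 had an unadjusted p below 0.05. From 7 to 9 weeks 1 was called higher, beside 1.89% of all tested genes. That gene was Alas2, the erythroid form of the first enzyme, listed at 8.87 for 7wkWT, 6.44 for 7wkKO and 9.48 for 9wkKO in the authors' deposited tables (log2 fold -0.46, q = 0.181, and 0.55, q = 0.0314). Both joint haemoglobin rows were also called higher from 7 to 9 weeks. The joint row of Hba-a1 and Hba-a2 was listed at 226 for 7wkWT, 167 for 7wkKO (177 in the later table) and 257 for 9wkKO in the authors' deposited tables (q = 0.0955 and 0.00427), and that of Hbb-b1 and Hbb-bs at 469, 359.5 and 498 (q = 0.179 and 0.0291). Of 3 tested erythroid markers 1, Alas2 itself, was called, and the red cell membrane gene Slc4a1 was at most 0.189 in every group. The summed FPKM of the 8 listed erythroid markers, without the joint rows, was 62.3 in 7wkWT and 50.9 in 7wkKO in the first table, and 97.5 in 7wkKO and 115 in 9wkKO in the second, where Hba-a2 was listed differently. The part of blood RNA in the Alas2 level was not tested. Alas1, the form used outside red cells, was listed at 95.1, 90.7 and 101 (q = 0.960 and 0.845), and Cpox, the coproporphyrinogen oxidase gene, at 12.7, 17.8 and 20.6 (q = 0.0694 and 0.679).

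Of 8 tested genes of heme breakdown and transport at 7 weeks and 9 later, 0 were called in either comparison by the deposited Cuffdiff test, and an unadjusted p below 0.05 was listed for 1 and 0. Cd163, the macrophage receptor for haemoglobin bound to haptoglobin, was listed at 6.90, 7.19 and 7.13 in the authors' deposited tables, and Slc48a1, a heme carrier gene, at 39.3, 41.0 and 37.5 (q = 0.979 and 0.944). Macrophages recycle heme iron and express both Hmox1 and Slc40a1. Of 10 macrophage markers 0 were called in either comparison (0 and 1 at an unadjusted p under 0.05), and their summed FPKM was 451, 399 and 451 in 7wkWT, 7wkKO and 9wkKO, led by Lyz2 (147, 130 and 162). Their part in the Hmox1 and Slc40a1 values was not tested.

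Mitochondrial iron import and iron-sulphur cluster assembly had 20 genes, all tested, of which 0 met the threshold of the deposited Cuffdiff test in either comparison, and an unadjusted p below 0.05 was listed for 0 and 1. Their log2 folds lay between -0.27 and 0.26 at 7 weeks and between -0.16 and 0.37 later. Bola3, which helps load clusters onto target proteins, was listed at 380 for 7wkWT, 360 for 7wkKO and 394 for 9wkKO in the authors' deposited tables. Hspa9, a mitochondrial chaperone gene, was listed at 273, 301 and 288.

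The list of further IRE-bearing and hypoxia genes held 9, all tested, with 0 called at 7 weeks and 1 at an unadjusted p under 0.05. Later 1 was called higher, beside 1.89% of all tested genes. This was Egln3, an iron-dependent prolyl hydroxylase of the hypoxia pathway, listed at 29.1 for 7wkWT, 26.2 for 7wkKO and 40.8 for 9wkKO in the authors' deposited tables (later log2 fold 0.63, q = 0.00237). Hif1a, the hypoxia-inducible factor gene, was listed at 14.5, 19.4 and 19.0 (q = 0.0955 and 0.991). Epas1, a hypoxia factor gene with an IRE, was listed at 191, 167 and 164 (q = 0.785 and 0.994).

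**Figure D4:**
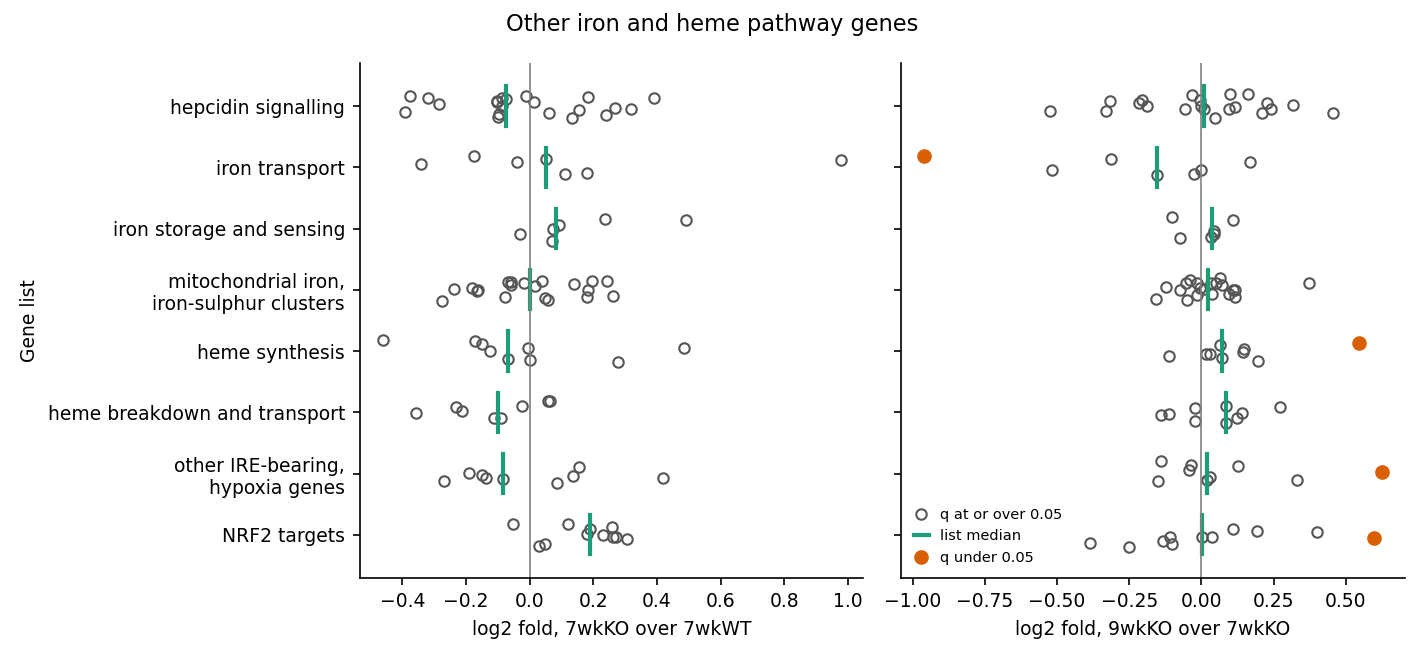
Log2 folds of the other tested iron and heme genes by list, for 7wkKO over 7wkWT (left) and 9wkKO over 7wkKO (right), with 1 point per gene, filled where the deposited q was under 0.05, and a bar at the list median. No point is filled on the left, and 4 are on the right, Slc22a17 below 0 and Alas2, Egln3 and Srxn1 above it.

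Over the 8 lists together, 0 of 91 tested genes outside the members were called at 7 weeks by the deposited Cuffdiff test, beside 2.37% of all tested genes, and 11 had an unadjusted p below 0.05, beside 11.3% of all tested genes. From 7wkKO to 9wkKO 3 were called higher and 1 lower of 92, or 4.35%, beside 4.66% of all tested genes, and 12 had an unadjusted p under 0.05, beside 12.9%. The median log2 fold of the 8 lists was 0.015 at 7 weeks and 0.024 later.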

How the data were processed

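Per the labels' protocols, mRNA was enriched on poly-T beads and prepared as stranded libraries. The submitters' processing notes name TopHat2, Cuffdiff and mm10, without versions or settings. Per the file headers, the deposited tables give each gene or isoform a group FPKM, p-value and q-value computed by the authors. The authors' test statistic is a score and served as an alternative only. Sequencing depth is unknown, since the files hold no total.

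Log2 folds were recomputed from the deposited FPKM values, with no pseudocount. Intervals were set from the standard error that gives the deposited p under a normal distribution. The errors implied by the deposited test statistic are wider. A call needed status OK and a deposited q below 0.05, adjusted over every gene the authors tested, and file starts were raised by 1.

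The members, the lists and the marker genes were chosen with earlier results of these data known. Named genes were the members, up to 4 called genes of each list or its 2 most abundant where none was called, Hamp2, the 8 genes nearest Hamp, and leading markers. Lcn2, Ncoa4, Cpox, Hif1a, Cd163, Nfe2l2, and the genes described as low or at 0 were named after their values were seen. Symbols were matched through RefSeq synonyms where they differed (Flvcr1 and Flvcr2 as Mfsd7b and Mfsd7c), and rows joining several symbols were used for haemoglobin only. Values of some listed genes are not reported here.

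Hairpins were searched in GENCODE M21 transcripts and promoters in RefSeq windows. The adjustment and error calculations were tested on simulated data. Calculations used SciPy 1.17.1, pandas 2.3.3 and NumPy 2.4.6 under Python 3.11.15, and figures Matplotlib 3.10.9.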

Additional observations from a re-analysis of the deposited data

How the results depend on the processing

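The call count for the members at 7 weeks was 0 under each of 6 alternatives (q thresholds of 0.01 and 0.10, adjustment over genes with FPKM of at least 1, a normal p from the deposited statistic, a log2 fold minimum of 0.5, and the isoform tables). For the 8 lists at 7 weeks it was 0 in each of these except the q threshold of 0.10, which gave 4 (Lcn2, Ncoa4, Cpox and Hif1a). From 7 to 9 weeks the 4 calls became 2 at a q threshold of 0.01, 2 in the isoform tables (Egln3 and Srxn1 in both), and 0 with a normal p from the statistic. All 40 alternative 7 week log2 folds of the members (pseudocounts of 0.1 and 1 FPKM, centring, summed isoforms) stayed within the implied intervals. For the later comparison, which has no interval here, 39 of 40 stayed within 1.5 times, the exception being Hamp with 1 FPKM. No member fold changed sign in either comparison. A pseudocount only shrinks a fold toward 0, which every 7 week interval holds, and summed isoforms nearly repeat the gene value. Centring subtracted medians of only -0.00061 at 7 weeks and 0.014 later. The signs and the 7 week outcome could thus hardly have differed and are no check of the folds. The 7 week interval of Hamp widened to 0.763 to 2.96 times with the error implied by the statistic. The later log2 fold of Hamp was -3.87 and -2.89 with those pseudocounts. Of the 8 genes nearest Hamp, 3 remained with an FPKM minimum of 5 and 3 with a pseudocount of 1. The minimum of 5 itself removed the rest, which were listed below it in 7wkKO, so it could leave no more than 3. No paired analysis was possible because each group has a single deposited value, and for the same reason no replicate could be left out. At 0.703 FPKM and unknown depth, the precision of Hamp in 9wkKO cannot be stated.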
